A study of Mus musculus with 2 samples.

Results

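Paneth cells of mouse distal small intestinal organoids were followed in single-cell RNA data through the barcodes that ranked highest for 5 of their granule genes: Lyz1, Defa17, Defa24, Ang4 and Itln1. Of 3409 barcodes, 2145 held at least 500 detected genes, at least 3000 estimated counts and at most 25% mitochondrial counts. Each was given a Paneth score, the mean of ln(1 + counts per 10000) over those 5 genes, and a goblet score over Muc2, Fcgbp, Tff3, Zg16 and Spink4. Barcodes in the top 100 of either score numbered 148. Members were chosen by the measured levels of these genes. The 84 whose Paneth rank was at least as good as their goblet rank are described here, and the other 64 are called goblet-ranked. The score of the last member was 2.11 and that of the barcode just outside the top 100 was 2.05, against 5.81 for the highest. The 10 score genes chose these barcodes, so their levels are a description and carry no test.

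The pool held sorted epithelial cells of 2 control and 3 Etv1 mutant cultures, each carrying its own hashtag. Both genotypes bear the reporter alleles Neurog3-RFP and Gcg-Venus. Neither the nature of the Etv1 mutation nor the sort gate is given in the sources used here. The labels call the cultures biological replicates without naming animals, so the tests below measure the spread between these cultures. Hashtags placed 51 of the 84 barcodes (60.7%) in 1 culture: 10 in control culture 1, 16 in control culture 2, and 7, 12 and 6 in mutant cultures 1, 2 and 3. Several hashtags were called on 11 and none on 22. A caller of doublets in the RNA marked 3 of the 2145 barcodes, 0 of them among the 84, so doublets within a culture may remain.

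Paneth cells sit at the base of the small intestinal crypt between the stem cells. They arise from the same secretory progenitors as goblet cells under Atoh1, and Gfi1, Spdef and Sox9 act in their differentiation. Their granules carry alpha-defensins, which are cut to their active form by the protease Mmp7 in the mouse, lysozyme (Lyz1), the angiogenin Ang4 and the lectin Itln1. Through Wnt3, Dll4 and Egf they are known as a niche for neighbouring stem cells, and Wnt signals acting through TCF factors are in turn needed for their own gene program.

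Promoters of 3 of the genes are shown because they place the lysozyme gene beside 2 members of the defensin family, a family of near copies. They are RefSeq sequences on GRCm38.p6, from 250 bases before to 50 bases after the annotated start. Capitals mark 3 short motifs, each searched on both strands. The first is TATAAA, the usual core of a TATA box. Another is CTTTGAT, which TCF factors can bind and which reads in reverse in both defensin promoters shown. The last is CAGCTG, a form of the E-box that bHLH factors such as Atoh1 can bind. Lyz1 is shown from chr10:117292819-117293118 on the minus strand, Defa30 from chr8:21134400-21134699 and Defa20 from chr8:21509008-21509307, both on the plus strand.
Lyz1: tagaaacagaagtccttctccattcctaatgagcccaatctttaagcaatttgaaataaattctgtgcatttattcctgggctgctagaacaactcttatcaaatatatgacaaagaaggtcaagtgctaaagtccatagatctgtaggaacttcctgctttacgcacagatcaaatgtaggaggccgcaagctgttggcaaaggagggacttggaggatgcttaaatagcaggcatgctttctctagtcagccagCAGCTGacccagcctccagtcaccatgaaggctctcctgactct
Defa30: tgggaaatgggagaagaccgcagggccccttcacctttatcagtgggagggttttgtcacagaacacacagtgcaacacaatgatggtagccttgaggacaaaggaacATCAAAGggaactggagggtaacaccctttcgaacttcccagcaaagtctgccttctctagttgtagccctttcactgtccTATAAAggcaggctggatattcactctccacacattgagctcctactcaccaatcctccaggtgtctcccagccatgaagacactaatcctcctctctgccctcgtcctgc
Defa20: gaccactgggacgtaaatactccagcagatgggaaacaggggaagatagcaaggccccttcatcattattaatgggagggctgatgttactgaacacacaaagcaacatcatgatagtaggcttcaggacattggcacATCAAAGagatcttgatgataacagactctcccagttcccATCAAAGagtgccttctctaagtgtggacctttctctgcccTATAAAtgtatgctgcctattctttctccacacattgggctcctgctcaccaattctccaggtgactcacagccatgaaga

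Of the 28 alpha-defensins in the matrix, 16 had a promoter in that table. TATAAA stood in 15 of these 16, against 14.2% of all 27025 promoters, and CTTTGAT in 13 of 16, against 3.72%. In Defa20 the TATAAA began 31 bases before the start, with CTTTGAT 72 and 112 bases before it. Defa30 had TATAAA 61 and CTTTGAT 142 bases before the start. Lyz1 held neither, and a CAGCTG 6 bases after the start. CAGCTG was in 1 of the 16 defensin promoters, against 16.1% of all. These matches describe the letters only. Over the 120 pairs of defensin promoters the median identity was 72.3%, 17 pairs passed 90%, and some, among them Defa2 with Defa20 and Defa23 with Defa31, were identical. The pair printed, Defa20 and Defa30, shared 65.8%. The promoters are not independent of each other, so the motif counts are not counts of separate cases.

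The counting limits what a single defensin value can say. In the annotation of the build mm10, 22 of the 28 had a position and the rest had none. All 22 lie on chromosome 8 between 21025545 and 21735471, 21 of them on the plus strand. Estimated counts that are not whole show where reads were split between genes: 83.0% of the values above 0 of Defa2, 79.7% of Defa20 and 60.0% of Defa17 were not whole. Defa24 was not whole in 4.23% of its values and Lyz1 in 2.73%. The sum over the family and Defa24 are therefore used below in preference to the other copies.

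Within the 84 barcodes 3 kinds could be told apart by their goblet rank and depth, a split made after the values were seen and used as a description. In the first kind, 36 barcodes were in the top 100 of both scores, here called double-ranked, with a median of 16628 counts. A second kind of 14 was in the Paneth top 100 only and held 10000 counts or more, with a median of 25660. The last 34 were in the Paneth top 100 only and held under 10000 counts, with a median of 3894. The goblet-ranked barcodes had a median of 18346 counts. The 580 barcodes that failed only the limit of 3000 counts had a median of 1296.

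**Figure D1:**
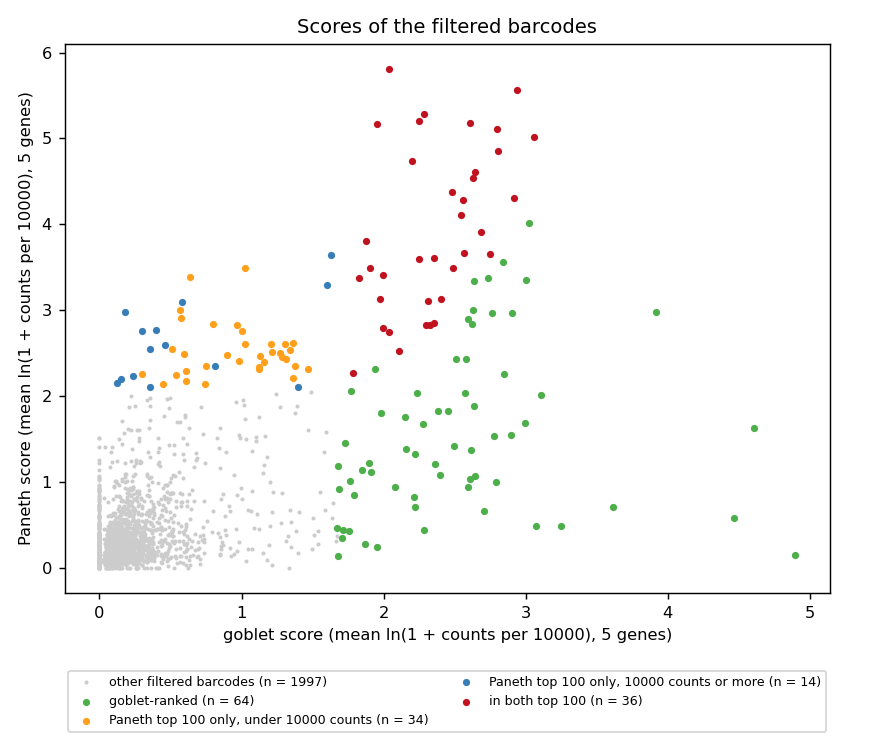
Goblet score (x axis) and Paneth score (y axis), each a mean of ln(1 + counts per 10000) over 5 genes, for the 2145 filtered barcodes. The 36 double-ranked barcodes (red) have higher goblet scores than the 48 other members, by the rule, and no gap separates the lowest members from the grey barcodes below 2.05.

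Defensin transcripts took a larger share of counts in the double-ranked cells as a set than in the rest. The family sum includes Defa17 and Defa24, 2 of the genes that chose the members, so it is a description. Summed over the 36, alpha-defensins took 15.7% of all counts, with a median of 7.89% per cell. Single cells ran from 0.135% to 65.5%, with a lower quartile of 2.87%. In the 14 deep single-ranked cells they took 1.26% and in the 34 shallow ones 1.89%. Goblet-ranked cells held 0.973% in sum with a median of 0.0751%, the enterocyte comparator 0.0257% and the 1997 other filtered barcodes 0.0547%. The barcodes under 3000 counts held 0.962%. All 13 members with over 10% defensin counts, and the 9 with over 20%, were double-ranked.

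Defa24, at chr8:21734494-21735471, was the top defensin in 63 of the 84 and Defa17 in 15. Summed Defa24 reached 59237 counts per 1000000 counts of the set (CPM) in double-ranked cells, 5115 in deep and 4978 in shallow single-ranked cells, 5304 in goblet-ranked and 71.3 in enterocyte cells. At least 1 Defa24 count was present in 84 of 84 members. Barcodes under 3000 counts reached 2678 CPM. Defa17 stood at 39772 CPM in double-ranked and at 2046 and 3058 CPM in the single-ranked kinds.

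The mix of copies differed from cell to cell. The leading copy made up between 22.2% and 99.0% of the defensin counts in double-ranked cells, with a median of 47.8%. In the shallow single-ranked cells it was between 16.3% and 53.9%, with a median of 31.9%. The member with the best Paneth score, from control culture 1, had 65.5% defensin counts from 26 copies. That cell held 16.4% of all Defa24 counts of the 84, 22.6% of Defa17, 57.0% of Defa29 and 90.2% of Defa22. Values of Defa22 and Defa29 thus rest largely on 1 cell, whereas no single member held more than 8.38% of the Defa37 counts or 14.7% of those of Defa5.

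**Figure D2:**
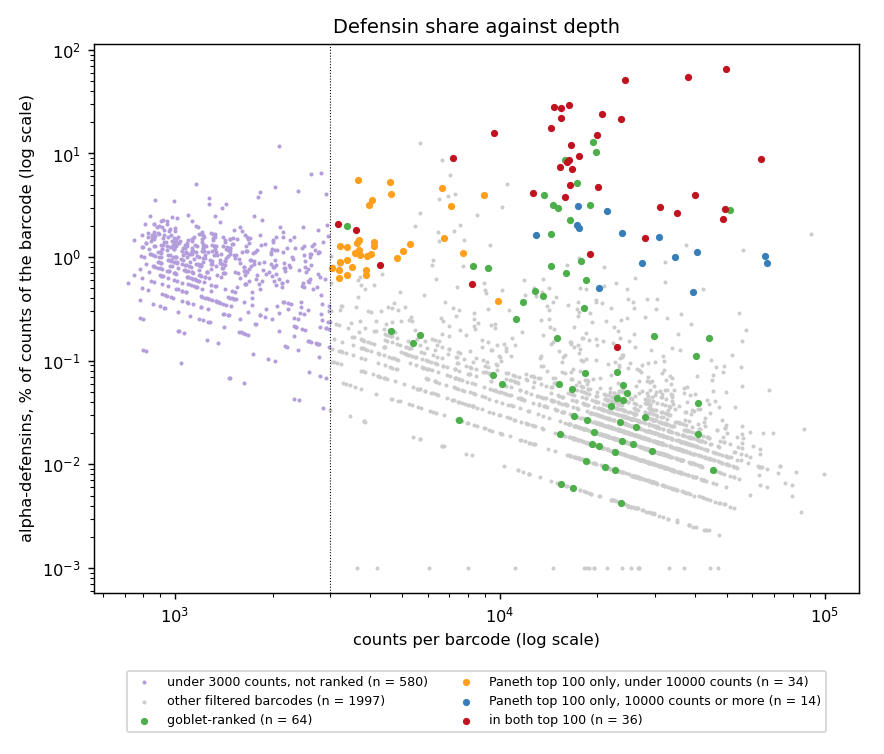
Share of alpha-defensin counts (y axis, percent, log scale, values under 0.001 drawn at 0.001) against counts per barcode (x axis, log scale). The dotted line marks 3000 counts: barcodes to its left have a median share of 0.843%, the shallow members just to its right 1.16% and the double-ranked members 7.89%.

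The other granule products were, like the defensins, highest in double-ranked cells, but goblet-ranked cells came next for most of them and shallow single-ranked cells last. The goblet-ranked sums include the 16 cells that were also in the Paneth top 100. Lyz1, on chromosome 10, stood at 12200 CPM in double-ranked cells, 2453 and 917 CPM in deep and shallow single-ranked cells and 4368 CPM in goblet-ranked cells. Itln1 was at 11050, 1678, 988 and 1951 CPM in the same order, and Ang4 at 2561, 1230, 497 and 1034 CPM. The deep sums of Lyz1 and Ang4 leaned on the members of Paneth ranks 22 and 35, whose goblet ranks were 105 and 106. These members held 0.709% and 0.783% Lyz1, against a median of 0.117% per deep cell. For Ang4 they held 0.202% and 0.623%, against a median of 0.0410%. Enterocyte cells held 25.7 CPM of Lyz1, 16.5 of Itln1 and 8.74 of Ang4. Mmp7, which the scores did not use, was at 1053 CPM in double-ranked cells against 156 and 149 CPM in the single-ranked kinds and 437 CPM in goblet-ranked cells. Pla2g2a, the secreted phospholipase of Paneth granules, had 493, 78.0, 19.4 and 147 CPM, and Clps, colipase, 1287, 232, 71.1 and 412 CPM. The reference annotates Pla2g2a as a polymorphic pseudogene. Of the list of 17 further granule and antimicrobial genes, 16 had a count in some member and Ang6 had none. Of those 17, 11 were higher and 5 lower in double-ranked cells than in the other filtered barcodes with 10000 counts or more.

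Within the double-ranked cells the score genes were uneven from cell to cell. Over these 36 cells the log levels of Defa24 and Defa17 had a Pearson r of 0.60, and Defa24 and the goblet gene Spink4 one of 0.66. For Lyz1 and Defa24 it was 0.08, for Lyz1 and Itln1 0.34 and for Itln1 and Ang4 -0.06. Lyz1 took from 0.00202% to 5.50% of the counts of a double-ranked cell, with a median of 0.814%. Itln1 ran from 0 to 4.003% with a median of 0.516%, and Ang4 from 0 to 1.39% with a median of 0.0545%. Under 0.1% Lyz1 was seen in 3 of the 36, under 0.1% Itln1 in 12 and under 0.1% Ang4 in 21. The best cell by score thus held 65.5% defensins but 0.744% Lyz1, while the third best held 55.1% defensins and 4.42% Lyz1. These correlations are a description across cells of 1 pool, which share cultures, differ in depth and were chosen by the sum of these same genes, which shapes the values.

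Outside the score genes, Mmp7 followed the Paneth score most closely over the 84 cells, with an r of 0.70, and 0.76 over the 44 with at least 10000 counts. Next came the secreted ribonuclease Rnase1 (r = 0.70), Hpd (0.69), Reg4 (0.66), Pla2g2a (0.66), Tpsg1 (0.64) and Clps (0.64). Those most opposed were the metallothioneins Mt2 (r = -0.74) and Mt1 (-0.68), the chaperone Hsp90ab1 (-0.73) and Ptma (-0.72). Mt1 was at 5705 CPM in double-ranked, 11145 in deep and 14717 in shallow single-ranked cells and at 45809 CPM in enterocyte cells. By ratio of summed level to all other filtered barcodes, defensins filled 11 of the top 12 places outside the scores, from 823-fold for Defa43 to 70.2-fold for Defa31. The exception was the chemokine gene Ccl6, at 350 against 5.65 CPM, 61.9-fold, with a count in 27 of the 84 members. For each of these 11 defensins, the top member held from 21.5% (Defa27) to 90.2% (Defa22) of the counts of the 84. For Defa43 that share was 58.0%, with a count in 26 members, and 79.6% of its values were not whole. Members were chosen partly by Defa17 and Defa24 of the same family, so these ratios are a description.

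Goblet genes were higher in double-ranked than in single-ranked cells by the rule itself, and the goblet-ranked cells held more of most of those named here. Spink4 was at 13716 CPM in double-ranked and 11542 CPM in goblet-ranked cells, and Tff3, a trefoil peptide, at 6076 and 7582 CPM. Muc2, the main gel-forming mucin, was at 186 against 401 CPM and Fcgbp at 1035 against 2452 CPM. Zg16 was at 2.53 CPM in double-ranked cells and at 669 CPM in goblet-ranked cells, where 5 of 64 cells had a count. Of 16 other goblet genes, 15 were higher in double-ranked cells than in the other filtered barcodes with 10000 counts or more. Retnlb had no count in any member. Agr2, a disulfide isomerase of mucous cells, was at 3483 CPM in double-ranked and 5239 CPM in goblet-ranked cells. Endoplasmic reticulum and secretory path genes took 1.14% of counts in double-ranked, 1.37% in goblet-ranked and 0.402% in other filtered barcodes. Of these 22 genes, 21 were higher in double-ranked cells than in the other filtered barcodes with 10000 counts or more.

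Among the members, Spdef, Atoh1, Gfi1 and Bhlha15 were found mostly in the double-ranked cells, and goblet-ranked cells had Spdef and Atoh1 about as often or more often. The whole list of 17 secretory transcription factors took 0.185% of counts in double-ranked, 0.124% in deep and 0.143% in shallow single-ranked and 0.218% in goblet-ranked cells. Spdef had a count in 24 of 36 double-ranked cells (66.7%, exact 95% interval 49.0 to 81.4), 3 of 14 deep and 1 of 34 shallow single-ranked cells. It was found in 55 of 64 goblet-ranked and 1 of 100 enterocyte cells, the latter at a median of 19535 counts. Atoh1 was found in 21, 1 and 1 members of the 3 kinds and in 38 goblet-ranked and 0 enterocyte cells. Gfi1 was found in 13, 1 and 0, and Bhlha15, a driver of secretory cell maturation, in 25, 3 and 1. Depth bears on such shares. With every cell thinned to 3000 counts, Spdef was left in 22.2% of double-ranked, 0% of deep and 2.94% of shallow single-ranked and 37.5% of goblet-ranked cells. Atoh1 was then in 25%, 0%, 2.94% and 18.8%. Sox9, needed for Paneth cells, was at 254, 241 and 123 CPM in the 3 kinds, 239 CPM in goblet-ranked and 18.0 CPM in enterocyte cells. Intervals and limits given here cover counting error only.

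Among niche ligands, Wnt3 was present in 30 of 36 double-ranked cells (83.3%, exact 95% interval 67.2 to 93.6), at 120 CPM. Deep single-ranked cells had it in 4 of 14 and shallow ones in 1 of 34. It was not limited to Paneth-ranked barcodes: goblet-ranked cells had Wnt3 in 57 of 64, at 162 CPM, against 1 of 100 enterocyte cells. Of those 64, 16 were also in the Paneth top 100. Thinned to 3000 counts, the share was 44.4% in double-ranked, 31.2% in goblet-ranked and 1% in enterocyte cells. Dll4, a Notch ligand, was in 17 of 36 double-ranked and 23 of 64 goblet-ranked cells, and Dll1 in 14 and 37. Kit, a receptor carried by deep crypt secretory cells, was in 28 of 36 and 56 of 64. Egf was found in 3 of 84 members, all double-ranked, a share of 3.57% (exact 95% interval 0.743 to 10.1). Wnt6 and Nrg1 had no count in any member.

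**Figure D3:**
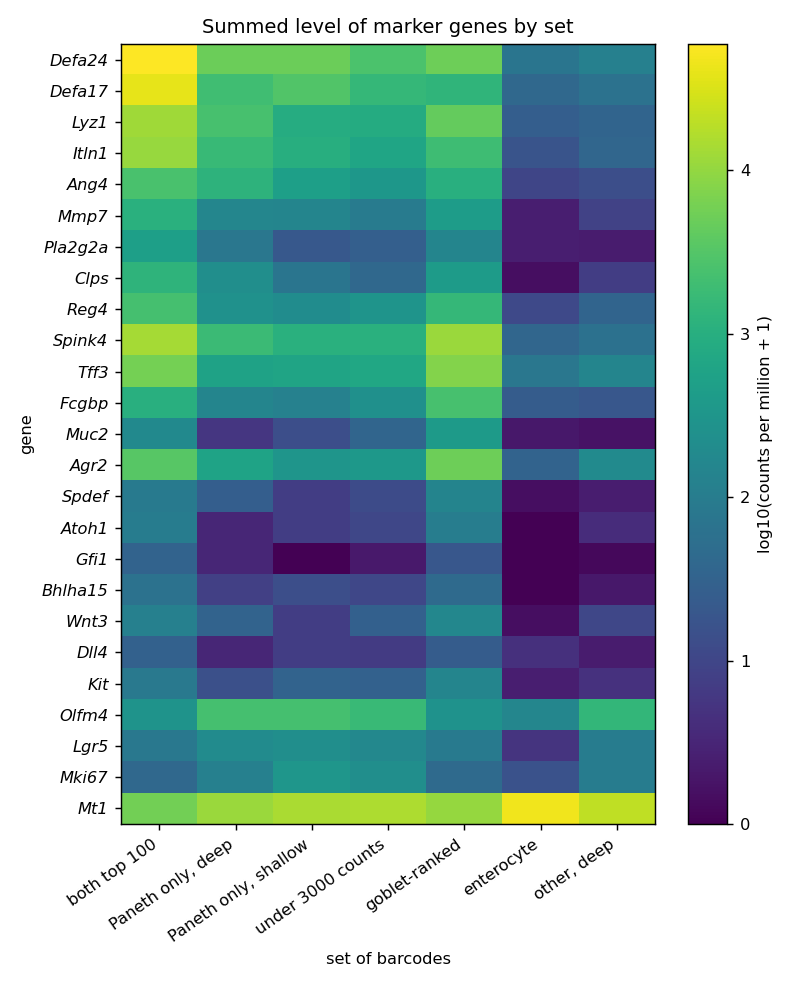
Summed level of 25 marker genes (rows) in 7 sets of barcodes (columns), coloured by log10(CPM + 1). Double-ranked cells carry both the granule and the goblet score genes by the rule, with Lyz1 at 12200 CPM and Spink4 at 13716 CPM. Olfm4 is at 280 CPM there and at 2325 and 2287 CPM in the single-ranked kinds.

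Against the label, the 48 single-ranked barcodes did not, as sets, carry the full Paneth profile. Single members differed: the deep ones of Paneth ranks 22 and 35 held 0.709% and 0.783% Lyz1, near the double-ranked median of 0.814%. Their defensin shares were 0.884% and 0.456%, against a double-ranked median of 7.89%. Stem genes (Lgr5, Olfm4 and 6 others) took 0.0865% of counts in double-ranked, 0.345% in deep and 0.416% in shallow single-ranked cells, and 0.228% in the other filtered barcodes. Olfm4, a stem cell marker, was at 280, 2325 and 2287 CPM in the 3 kinds and at 1461 CPM in the other filtered barcodes. All 8 stem genes and all 10 cycling genes were lower in double-ranked cells than in the other filtered barcodes with 10000 counts or more. Cycling genes took 0.0440% of counts in double-ranked, 0.150% in deep and 0.172% in shallow single-ranked cells. Mki67, a proliferation marker, had a count in 9 of 36, 9 of 14 and 18 of 34 cells, and after thinning to 3000 counts in 11.1%, 28.6% and 38.2%. Several sums of the shallow members stood beside those of the barcodes under 3000 counts as follows: 0.257% against 0.196% for Lyz1, Itln1, Ang4, Mmp7 and Pla2g2a together, 0.181% against 0.208% for the goblet score genes and 0.416% against 0.314% for stem genes. For alpha-defensins the sum was 1.89% against 0.962% and the median per barcode 1.16% against 0.843%. Of the shallow members 17 of 34 had no hashtag call, as had 75.3% of the barcodes under 3000 counts and 29.2% of the other filtered barcodes. Among the 379 of those others with under 10000 counts the share was 39.1%. Whether free RNA gave the low barcodes their Paneth score was not tested. Of the 36 double-ranked cells 6 (16.7%) had several hashtags, against 9.66% of the other filtered barcodes. Without those 6, alpha-defensins took 18.8% of counts and the goblet score genes 2.19%, against 15.7% and 2.10% with them. The 36 double-ranked cells carry Paneth and goblet score genes by the rule that chose them. Their presence is therefore no test of what these cells are. The 84 are called Paneth-ranked below.

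Enterocyte, tuft, immune and mesenchymal genes left little in the members. Enterocyte genes took 0.0465% of member counts against 2.93% in the enterocyte comparator, and Fabp1 had no count. Enteroendocrine genes took 0.0252% of member counts, with a median of 0.0194% and a highest share of 0.642% per cell, and Neurod1 and Tph1 at 0. The other filtered barcodes held 0.0527% in sum, with a median of 0 and an upper quartile of 0.00333%. In goblet-ranked cells enteroendocrine genes took 0.282%, where 1 cell reached 15.9% and the median was 0.0252%. Of 5 tuft markers 4 were at 0, and of 10 immune and mesenchymal markers 9, with Lyz2 alone at 4.98 CPM. Of 10 autophagy and microbial sensing genes 8 had a count in some member, and Nod2 and Lrrk2 had none. That list took 0.0369% of member counts against 0.0326% in the other filtered barcodes.

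Etv1, the mutated gene, had no count in any of the 84 members, in control or mutant cultures, which allows a share of up to 3.57% of members with a count. Members therefore cannot check the labels. Over all filtered barcodes Etv1 had 45 and 42 counts in control cultures 1 and 2, from 10 and 8 barcodes, and 18, 18 and 11 counts in mutant cultures 1, 2 and 3, from 2, 3 and 1 barcodes. Its relatives Etv4 and Etv5 had a count in 17 and 7 of the 84 members.

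No difference between genotypes in the frequency of Paneth-ranked cells was detected. They made up 3.24% and 4.92% of the assigned barcodes of control cultures 1 and 2, and 2.81%, 4.72% and 3.33% of those of mutant cultures 1, 2 and 3. The groups overlapped, and the mean difference of -0.457 percentage points had a two-sided exact permutation p of 0.6, where the design allows no less than 0.1. Double-ranked cells alone made up 2.27% and 2.15% in controls against 2.41%, 1.18% and 1.11% in mutants (exact p = 0.4). Median counts per member were 15066 and 20298 in controls and 16155, 4070 and 18180 in mutants (exact p = 0.6). In mutant culture 2, 7 of the 12 members were shallow single-ranked.

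**Figure D4:**
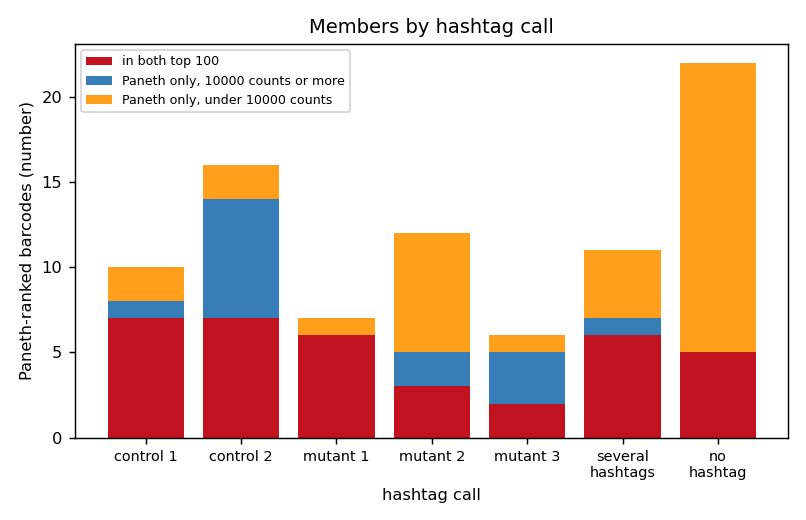
Number of Paneth-ranked barcodes (y axis) by hashtag call (x axis), stacked by kind. Control culture 2 holds 7 of the 14 deep single-ranked cells, mutant culture 2 holds 7 of the 34 shallow ones, and 17 of the shallow ones have no hashtag.

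The amount of defensin spread widely within each genotype. Alpha-defensins took 29.9% of summed member counts in control culture 1 and 2.01% in control culture 2, and 13.9%, 5.02% and 1.48% in mutant cultures 1, 2 and 3. Medians per cell were 16.6% and 1.53% against 9.12%, 1.46% and 1.30%. Defa24 stood at 92378 and 8281 CPM in controls and at 56603, 28837 and 3158 CPM in mutants, so the mutants lay within the span of the controls except for culture 3. Defa17 was at 73572 and 4794 CPM against 28844, 13136 and 4498 CPM. Lyz1 ran in another order, with 3581 and 6069 CPM in controls and 8191, 3884 and 1352 CPM in mutants. Itln1 was at 8743 and 4386 against 5560, 10712 and 2675 CPM, and Ang4 at 4362 and 1440 against 3061, 1309 and 395 CPM. Wnt3 varied least of these, from 49.3 to 85.6 CPM, with the groups overlapping. Of the 10 members from control culture 1, 7 were double-ranked, against 7 of 16 in control culture 2 and 2 of 6 in mutant culture 3. A single cell gave 44.7% of the Defa24 counts of control culture 1 and 58.3% of those of mutant culture 2. Within the double-ranked cells alone the cultures still spread: defensins took 35.7% in control culture 1 (median per cell 27.7%) and 4.45% in control culture 2 (median 3.02%), with 7 cells each. In mutant cultures 1, 2 and 3 they took 14.9%, 7.91% and 1.34%, with 6, 3 and 2 cells.

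**Figure D5:**
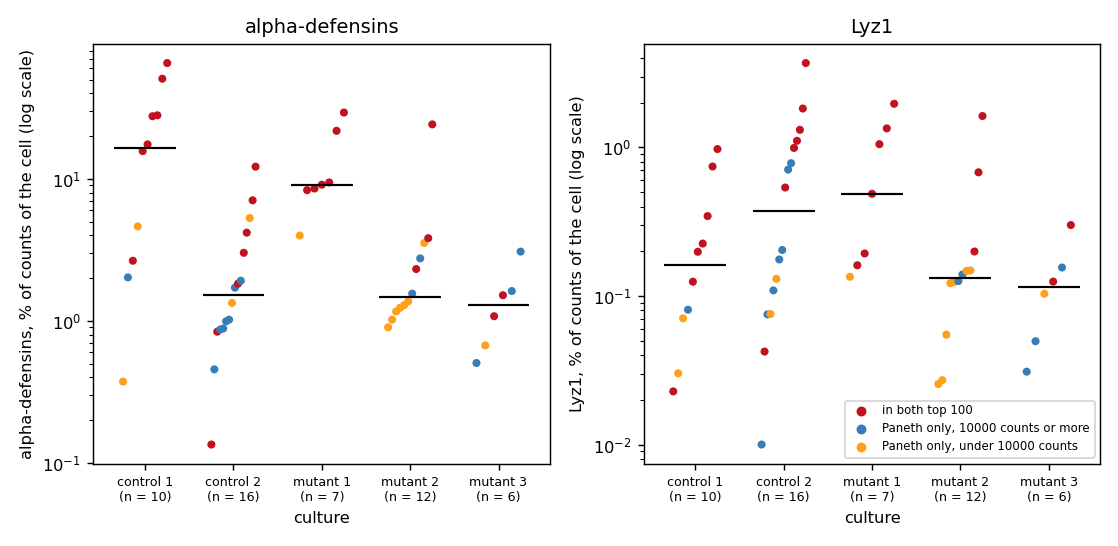
Share of alpha-defensin counts (left) and of Lyz1 counts (right) per Paneth-ranked cell (y axes, percent, log scale, values under 0.01 drawn at 0.01) in the 5 cultures. Bars mark medians: defensin medians are 16.6% in control culture 1 and 9.12% in mutant culture 1, and at most 1.53% in the other 3, while single cells span orders of magnitude in most cultures.

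No gene passed the genotype test. With counts summed per culture over the 51 assigned members, 0 of 2312 genes (0.0%) reached an adjusted p under 0.05 in edgeR's quasi-likelihood test with Benjamini-Hochberg adjustment. At an unadjusted p under 0.05 there were 18 higher (0.779%) and 21 lower (0.908%) in mutants, and DESeq2 also called 0, with 12 and 19 unadjusted. Restricting the sums to the double-ranked cells, or to the 84 members' deeper cells of at least 10000 counts, also gave 0. Data were simulated with the spread that genes of a like level showed as a trend, not with each gene's own spread. In them, 82% of genes changed by 2 on the log2 scale and 96% of those changed by 4 were called. Changes of a smaller size were not simulated. These shares do not cover genes that spread more than the trend. Defa22, at 5119 and 38.2 CPM in the controls, was not called at a log2 difference of -5.22.

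The genes with the smallest p values, all with an adjusted p of 0.999 in edgeR, were Uaca, Olfr1238 and Ly6e in the higher direction and Pclaf, Defa29 and Defa22 in the lower. Uaca was at 35.5 and 61.1 CPM in controls and 143, 122 and 148 CPM in mutants, a log2 difference of 1.24 (SE 0.35). Ly6e, a GPI-anchored surface protein, was at 117 and 48.3 against 398, 263 and 326 CPM (1.73, SE 0.55). Its difference became 0.91 without control culture 2 and 0.54 in the single-ranked cells alone, where mutant culture 1 was left out. In both genes, and in Olfr1238, the groups did not overlap, as in 12.2% of all genes tested in that direction. Pclaf, a replication factor, was at 76.1 and 415 CPM in controls and 51.0, 91.8 and 19.7 in mutants (-2.22, SE 0.64), which became -0.96 without control culture 2. Defa29 was at 2202 and 10.2 CPM against 71.4, 18.4 and 19.7, so its difference of -5.52 (SE 1.69) rests on control culture 1. Defa22 did so too: it was at 5119 and 38.2 against 184, 110 and 0 CPM, and its difference of -5.22 turned to 1.41 without that culture. Leaving out a control leaves a lone control culture, whose spread is assumed to be that of the mutants. Without control culture 1, 6 genes passed, Ly6e and Defa5 higher and Pclaf, H1f5, H2ac7 and Anxa1 lower. Without control culture 2, 6 other genes passed, all defensins and lower: Defa2, Defa22, Defa23, Defa29, Defa34 and Defa40.

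Gene lists are given by counts and medians beside all 2312 genes, whose median log2 difference was -0.02 with 51.9% below 0. None of the members of any list passed the test. Of 28 alpha-defensins 23 passed the filter on low counts, 19 of them with values below 0 and a median of -1.81, and 0 without overlap in the lower direction (1.34% of all genes). That median was 1.91 without control culture 1. It was 0.61 in the single-ranked cells alone and -2.11 in the double-ranked cells alone. The single-ranked value leaves out mutant culture 1, which had 1 such member. The direction of the defensin median thus rests on control culture 1, and it differed between the kinds of member, though over unlike sets of cultures. Under the fixed hashtag rule, which left no member in control culture 1, the defensin median was 1.08. Of 17 other granule and antimicrobial genes 10 were tested, 9 below 0, with a median of -0.67, which became 0.26 without control culture 1, -1.77 without mutant culture 1 and 1.02 under the fixed hashtag rule. Secretory transcription factors had 6 of 10 above 0 with a median of 0.20, and endoplasmic reticulum genes 8 of 17 with a median of -0.01. Other goblet genes had 3 of 8 above 0 and a median of -0.21, which was 0.84 without control culture 1 and -0.89 without control culture 2. Of 12 niche ligands 2 were tested, 1 on each side of 0, and of 14 Wnt, Eph and surface receptors 2, both above 0.

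The 11 tested mitochondrially encoded genes all had values below 0, with a median of -0.83, and 6 did not overlap between groups, against 1.34% of all genes in that direction. The share of mitochondrial counts in the summed members was 5.65% and 4.06% in control cultures 1 and 2 and 3.80%, 2.86% and 3.88% in mutant cultures 1, 2 and 3, so the groups did not overlap. One of them, mt-Cytb, a subunit of a respiratory complex, was at 7472 and 6481 CPM against 4664, 4290.1 and 5835 CPM (-0.83, SE 0.28, adjusted p = 0.999 in edgeR). In the double-ranked cells alone the share was 4.17% and 4.16% in controls and 2.45%, 2.23% and 3.56% in mutants, and the list's median was -0.99. The 2 shallow single-ranked cells of control culture 1 held 22.8% mitochondrial counts. The list's median was -0.26 without control culture 1, -1.24 without control culture 2 and -0.12 under the fixed hashtag rule. Scaling by library totals without TMM raised the median of all genes to 0.24 and that of the mitochondrial list to -0.46. Of 8 stem genes 7 were tested, 6 above 0 with a median of 0.66, and 4 did not overlap, against 12.2% of all genes in that direction, among them Lgr5 at 101 and 86.5 CPM against 214, 122 and 405 CPM and Smoc2 at 117 and 142 against 204, 288 and 365 CPM. Their median was 0.26 in the double-ranked cells alone. It was 0.98 in the single-ranked cells alone, where mutant culture 1, with 1 such member, was left out. The share of single-ranked cells differs between cultures, with 3 of 10 and 9 of 16 in controls and 1 of 7, 9 of 12 and 4 of 6 in mutants. Its part in the stem values was not tested.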

How the data were processed

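One RNA library and one hashtag library of pooled cells were used. The deposited hashtag values are whole counts and the deposited RNA values are estimated counts, 95.6% of those above 0 whole, with no normalization by the authors that the values show. The build was mm10 and the tools included Salmon 1.4.0, alevin, Seurat 4.3.0 and Cell Ranger 6.1.0, per the submitters' processing notes, which do not say what each tool did. Hashtags were assigned to cultures by the labels and called with HTODemux (Seurat 5.3.0, positive quantile 0.99); of the 51 members so placed, MULTIseqDemux put 38 in the same culture and called no single culture for 13, while a fixed rule (top hashtag at least 50% of at least 10 hashtag counts and at least 2 times the next) put 25 in the same and 1 in another culture and left 25 uncalled. Doublets were sought with Scrublet in scanpy 1.11.5, and barcodes with several hashtags entered no culture. Counts were summed per culture, rounded and tested with edgeR 4.0.16 (quasi-likelihood, TMM, filterByExpr, Benjamini-Hochberg, threshold 0.05), and the test was tried on simulated data. Summed counts per culture ran from 98022 to 393045. Levels (CPM) are counts per 1000000 summed counts of a set. The enterocyte comparator is the 100 filtered barcodes, outside the ranked ones, with the highest score over Apoa1, Apoa4, Apoc3, Fabp1 and Alpi. Positions are from GENCODE vM21. Exact intervals are Clopper-Pearson, and the limit for a count of 0 uses 3 counts. Members, gene lists and tests were chosen with earlier results of these data known. Named genes were the score genes, the highest 4 of each list, the 3 smallest p values in each direction, the 12 largest ratios to all other filtered barcodes among genes with a count in at least 25% of members, the 12 highest correlations, and Etv1, Etv4 and Etv5; H1f5, H2ac7, Anxa1, Defa5 and the other genes passing only under alternatives were named after their values were seen, as were Gfi1, Bhlha15, Egf, Mki67 and genes named for being at 0.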

Additional observations from a re-analysis of the deposited data

Results flagged for a closer look

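Barcodes under 3000 counts were in no comparison, and alpha-defensins made up 0.962% of their summed counts, against 0.0547% in the 1997 other filtered barcodes and 0.296% in the 379 of those with under 10000 counts. Their median was 0.843% per barcode, against 1.16% in the shallow single-ranked members, which held 1.89% in sum. The source of these defensin counts was not tested.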

How the results depend on the processing

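The count of genes passing between genotypes was 0 in the main analysis, 26 (1 higher, 25 lower) with no filter on low counts, 9 under the fixed hashtag rule and 1 (H2ac7, lower) when barcodes were filtered at 10000 counts before ranking. Leaving out 1 culture at a time gave 0 to 6. The other alternatives, DESeq2, library totals, MULTIseqDemux calls, top 50 or 150, either kind of member alone, 1000 counts and members without the deepest cell of each culture, gave 0. Single-ranked cells alone were compared without mutant culture 1, which had 1 such member. Of the 26 genes, 16 were defensins, among them Defa17 and Defa24, and Hmox1 was the higher one. The fixed rule left 3 cultures with at least 2 members (control 2, mutant 1 and mutant 3), so its lone control is assumed to vary like the mutants. The difference in the share of Paneth-ranked cells, -0.457 percentage points, ranged from -1.30 to 0.387 without 1 culture, and was 0.725 under the fixed rule and 0.186 in members outside the goblet top 100. The difference in median counts per member, -4881, ranged from -7570 to -515 without 1 culture, and was 5479 under the fixed rule, 4196 with the top 50 and 4108 in the double-ranked cells alone, an alternative chosen after seeing the data, as was the limit of 10000 counts on the main ranks. Defa22, at -5.22, had 1.41 without control culture 1, -6.23 without control culture 2 and 0.47 without the deepest member of each culture. The cause of these changes was not tested. No paired analysis was possible because the labels number no culture: the numbers used here only name the hashtags in their listed order and mark no shared animal, batch or day. Depth limits the shares of cells with a count: thinning to 3000 counts took Wnt3 in double-ranked cells from 83.3% to 44.4%.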

Other observations

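Immediate early genes took 0.390% of counts in double-ranked, 0.376% in deep and 0.350% in shallow single-ranked cells, 0.455% in goblet-ranked cells and 0.239% in the other filtered barcodes, of which those under 10000 counts held 0.383%. Of the 13 genes 13 were higher in double-ranked cells than in the other filtered barcodes with 10000 counts or more. Beside the other filtered barcodes, Jun was at 703 against 422 CPM, Fos at 573 against 359 CPM and Egr1 at 385 against 148 CPM. Goblet-ranked cells had 776, 742 and 424 CPM of these genes. Zinc handling genes split in direction: Slc30a2, a zinc transporter, was at 30.4 CPM in double-ranked cells against 10.9 CPM in the other filtered barcodes, while Mt2 was at 1127 against 2989 CPM. Sct, the secretin gene, was at 326 CPM in double-ranked cells, with a count in 33 of 36, and at 981 CPM in goblet-ranked cells, whereas Chga was at 1.27 and 26.8 CPM.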
